A study of Mus musculus with 16 samples.

Results

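The 32 genes described here encode the enzymes of the tricarboxylic acid (TCA) cycle, the enzymes that supply or withdraw its intermediates (anaplerosis and cataplerosis), mitochondrial carriers of those intermediates and the glycerol-3-phosphate dehydrogenases. They were listed by role and taken by gene symbol from the 40840 genes counted in the series. No value entered this rule, but the list was made with earlier results of these data known. All 32 held at least 10 counts in total over the 16 libraries, the filter applied to every gene. The libraries came from a single mouse cell line, p53-/-; Myc hepatoblasts, liver progenitor cells that lack the tumor suppressor p53, overexpress the oncogene Myc and serve as a model of hepatocellular carcinoma. Cells received sorafenib, an oral inhibitor of several protein kinases, at 8.5 µM, or its vehicle DMSO, for 48 h or 7 days. The 4 groups (DMSO 48 h, sorafenib 48 h, DMSO 7 days and sorafenib 7 days) had 4 libraries each, and both alterations, p53 loss and Myc, were shared by every group, so neither was itself compared. The comparisons ask how the drug changed these transcripts at either time, whether the response differed between the times, and how the genes moved with time under either treatment.

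In the TCA cycle, acetyl-CoA is joined to oxaloacetate to give citrate, which is oxidised stepwise back to oxaloacetate while NADH and reduced flavins are passed to the respiratory chain. Intermediates leave the cycle for the synthesis of lipids, amino acids and glucose, and pyruvate carboxylase and glutamine-derived 2-oxoglutarate refill it. In liver the cycle also connects to gluconeogenesis through phosphoenolpyruvate carboxykinase and to the cytosol through carriers and through the glycerol-3-phosphate shuttle, which moves reducing power from cytosolic NADH into the inner membrane.

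Total counts ranged from 16586254 to 30828427 per library (median 26360677), and 0.383 to 0.453% of them fell on the 32 genes. Values below are normalized counts, that is, counts divided by the library size after trimmed mean of M-values (TMM) scaling. In sorafenib 48 h replicate 2, counts fell to 0.605 of the level in the other replicates for genes from position 103350847 of chromosome 14 onward in genome order (log2 step -0.72), while no step found in another library exceeded 0.028. Of the 32 genes, Gpd1, Slc25a1, Me2, Pcx and Idh3g lie beyond that point, and results on them are given with and without that library. The other 27 genes had 0.993 to 1.19 times the mean of the other 3 replicates in it (median 1.07). Among markers of liver epithelium, Dlk1 (3488 to 38122 counts), Krt19, Sox9 and Krt18 were present in every library, while Hnf4a was at 0, Alb at 0 to 1 and Afp at 0 to 14 counts. The summed level of the 9 markers of this list was 34811 to 36175 normalized counts with DMSO and 12242 to 14015 with sorafenib at 48 h. At 7 days these sums were 18304 to 20167 with DMSO and 6039 to 6306 with sorafenib. Dlk1 made up most of these sums, and Sox9 went the other way, with means of 213 and 664 at 48 h and 350 and 904 at 7 days in DMSO and sorafenib. The 4 fibroblast markers summed to 43660 to 46413 with DMSO and 79618 to 86026 with sorafenib at 48 h, and to 42209 to 44741 and 52260 to 54132 at 7 days, nearly all of it Col1a1. Of the other 3, Col1a2 had the same direction as that sum, while mean Pdgfra went from 1528 to 354 at 48 h and from 729 to 153 at 7 days, and mean Pdgfrb from 1668 to 977 and from 718 to 470. Of the defining markers of endothelium, blood and macrophages, Cdh5 reached at most 2 counts, Ptprc at most 4, and Adgre1 was at 0, although Cd68 held 47 to 91 counts. These levels moved with the treatment, and their part in the results below was not tested.

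Sorafenib moved most of the 32 genes at both times, but by small amounts and in both directions. At 48 h, 17 were higher than in DMSO, 13 were lower and 2 (Aco1 and Idh3b) were not called by edgeR at a false discovery rate (FDR) under 0.05, while 54.6% of the 20444 genes tested were called (26.9% higher and 27.7% lower). At 7 days, 7 were higher, 18 were lower and 7 were not called (Aco1, Idh3a, Idh3g, Sucla2, Slc25a11, Slc25a13 and Gpd1), against a background of 56.8% (28.9% higher and 27.9% lower). The 4 sorafenib libraries did not overlap the 4 DMSO libraries for 26 of the 32 genes at 48 h and for 26 at 7 days, and the same was true of 48% and 56.8% of all genes tested. The median log2 fold change of the 32 genes was 0.13 at 48 h, beside -0.05 over all genes tested, and -0.17 at 7 days, beside 0.02. With a log2 fold change of 0.5 or more in either direction also required, 9 genes were called at 48 h (32.2% of all genes tested) and 9 at 7 days (34% of all). A change of 1 or more was called for 3 genes at 48 h (18% of all) and 3 at 7 days (20.6% of all). These counts were not tested against the background. In bulk RNA, fewer cells of a type and less RNA per cell cannot be told apart. Nothing in the labels states that replicates came from separate cultures, so p-values measure the spread between these libraries, which may be technical.

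**Figure D1:**
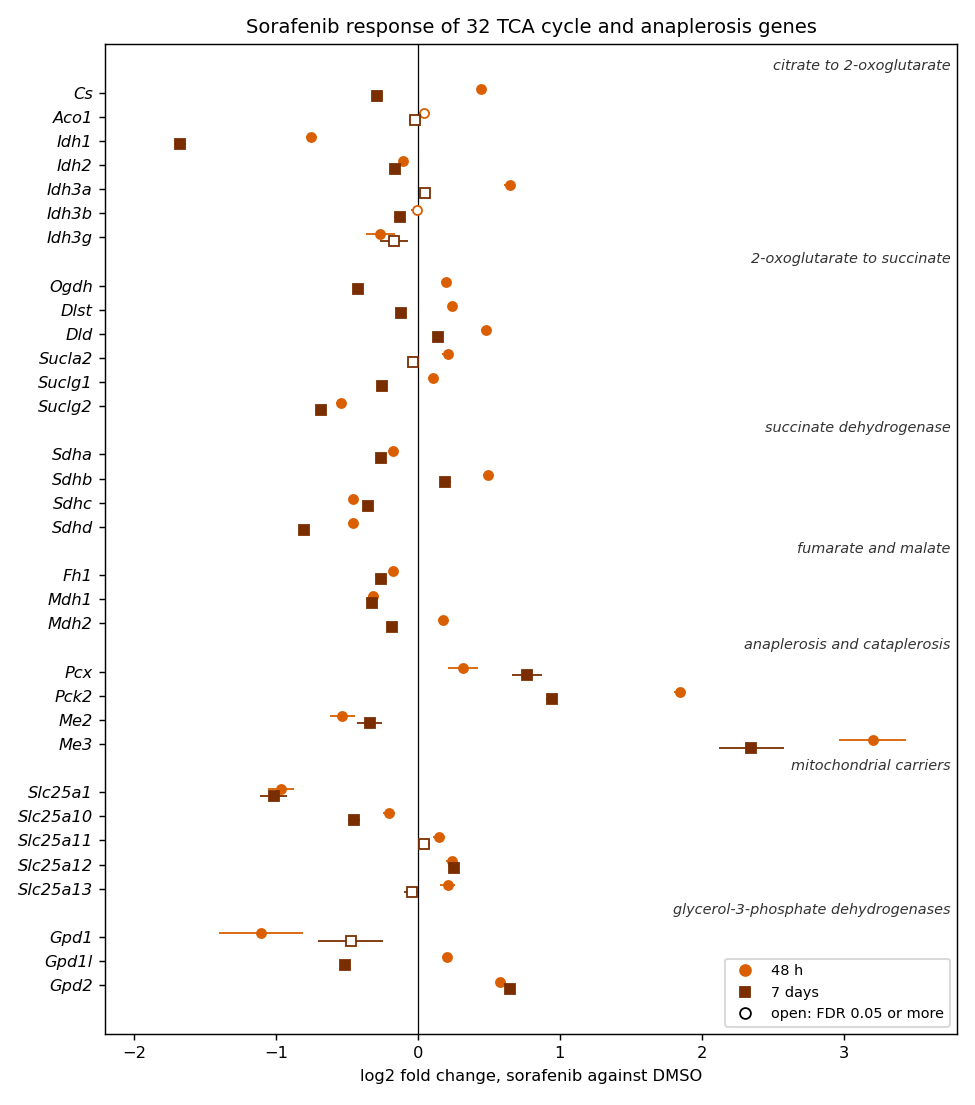
Log2 fold change of sorafenib against DMSO (horizontal axis) for each of the 32 genes (rows, grouped by role) at 48 h (circles) and 7 days (squares), with the standard error as a horizontal line and open symbols for an FDR of 0.05 or more. Me3 (3.20 and 2.35) and Pck2 (1.85 and 0.94) lie farthest to the right, and Idh1 (-0.75 and -1.67) lies farthest to the left at 7 days.

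Pck2, the mitochondrial phosphoenolpyruvate carboxykinase that turns oxaloacetate into phosphoenolpyruvate, rose more than any other of the 32 genes with at least 100 normalized counts. Its libraries held 2200.3, 2123, 2367 and 2172 normalized counts with DMSO and 7710.2, 8438, 7772 and 7926 with sorafenib at 48 h. At 7 days they held 2450.1, 2271, 2376 and 2298 with DMSO and 4449, 4465, 4490.3 and 4659.9 with sorafenib. Every sorafenib library was above every DMSO library at both times, and the DMSO ranges of 48 h and 7 days overlapped. The increase was 3.59-fold at 48 h (log2 fold change 1.85 ± 0.040 SE, FDR = 1.57e-18) and 1.92-fold at 7 days (0.94 ± 0.039, FDR = 3.70e-14), and the response at 7 days was smaller than at 48 h by 0.90 on the log2 scale (difference -0.90 ± 0.055, FDR = 8.35e-11). Pck1, the cytosolic enzyme, reached at most 2 counts in any library and was not tested. In the 250 bases before the start of its Ensembl canonical transcript, Pck2 was the only gene of the 32 with a match to TGATGNAA, a composite element bound by CEBP and ATF family factors, and 3.39% of 21722 protein-coding genes had such a match. The match is on the opposite strand, 103 to 96 bases before the start, in a stretch that overlaps an annotated exon (GRCm39, chr14:55777609-55777638, + strand). It is shown here in capitals because Pck2 had the largest rise among the genes with at least 100 normalized counts.
Pck2: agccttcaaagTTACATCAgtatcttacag

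Pcx, pyruvate carboxylase, which makes oxaloacetate from pyruvate, was also higher with sorafenib at both times, and its log2 fold change was called higher at 7 days than at 48 h. It was the only one of the 32 genes called in that direction with edgeR, where DESeq2 and voom called 2. At 48 h its libraries held 397, 357, 405 and 432 normalized counts with DMSO and 516, 334, 562 and 551 with sorafenib, where the low value is replicate 2. At 7 days they held 374, 339, 364 and 344 with DMSO and 597, 619, 578 and 629 with sorafenib. The groups overlapped at 48 h through that library alone and were apart at 7 days. The change was 0.32 ± 0.11, FDR = 0.016 at 48 h and 0.77 ± 0.10, FDR = 2.33e-06 at 7 days, with a difference between the times of 0.45 ± 0.15, FDR = 0.0227. Without sorafenib 48 h replicate 2 the 48 h change was 0.46 (FDR = 2.10e-08), the 7 day change 0.77 and the difference 0.32 (FDR = 0.00215). The 48 h call was lost when DMSO 48 h replicate 1 (0.29) or 2 (0.27) or sorafenib 48 h replicate 1 (0.27), 3 (0.22) or 4 (0.23) was left out. Rce1 and Lrfn4 overlap Pcx on the opposite strand. The E-box CACGTG, the core site of MYC and other basic helix-loop-helix factors, matched 233 to 228 bases before its start (GRCm39, chr19:4560240-4560269, + strand, a stretch that overlaps an annotated exon). The match is shown in capitals because these cells overexpress Myc.
Pcx: cgccagacggccCACGTGaggctttcaaga

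The malic enzymes of mitochondria, which turn malate into pyruvate, moved apart. Me2, the abundant enzyme, held 4474, 4617, 4569.7 and 4442 normalized counts with DMSO and 3341, 2202, 3475 and 3468 with sorafenib at 48 h. The 7 day libraries held 4451, 4528, 4477 and 4446 with DMSO and 3575, 3541, 3610.4 and 3441 with sorafenib. All sorafenib libraries were below all DMSO libraries at both times, replicate 2 at 48 h by the most. Me2 fell by 0.53 on the log2 scale at 48 h (FDR = 3.52e-05) and by 0.34 at 7 days (FDR = 0.00277). Without that library the 48 h value was -0.40 (FDR = 5.52e-18). Me3, an NADP-dependent enzyme, rose from 6.04 ± 1.17 to 57.3 ± 9.97 normalized counts (mean ± SD, n = 4) at 48 h (3.20 ± 0.24, FDR = 4.49e-10) and from 8.28 ± 3.28 to 41.7 ± 2.93 at 7 days (2.35 ± 0.23, FDR = 2.45e-08). Its libraries held 5 to 12 raw counts with DMSO and 38 to 55 with sorafenib, so its fold change rests on few reads, although the groups were apart at both times. The difference between the times was not called (-0.85 ± 0.38, FDR = 0.0881), but it was called without sorafenib 48 h replicate 3 (-0.96) or DMSO 7 days replicate 3 (-1.08).

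**Figure D2:**
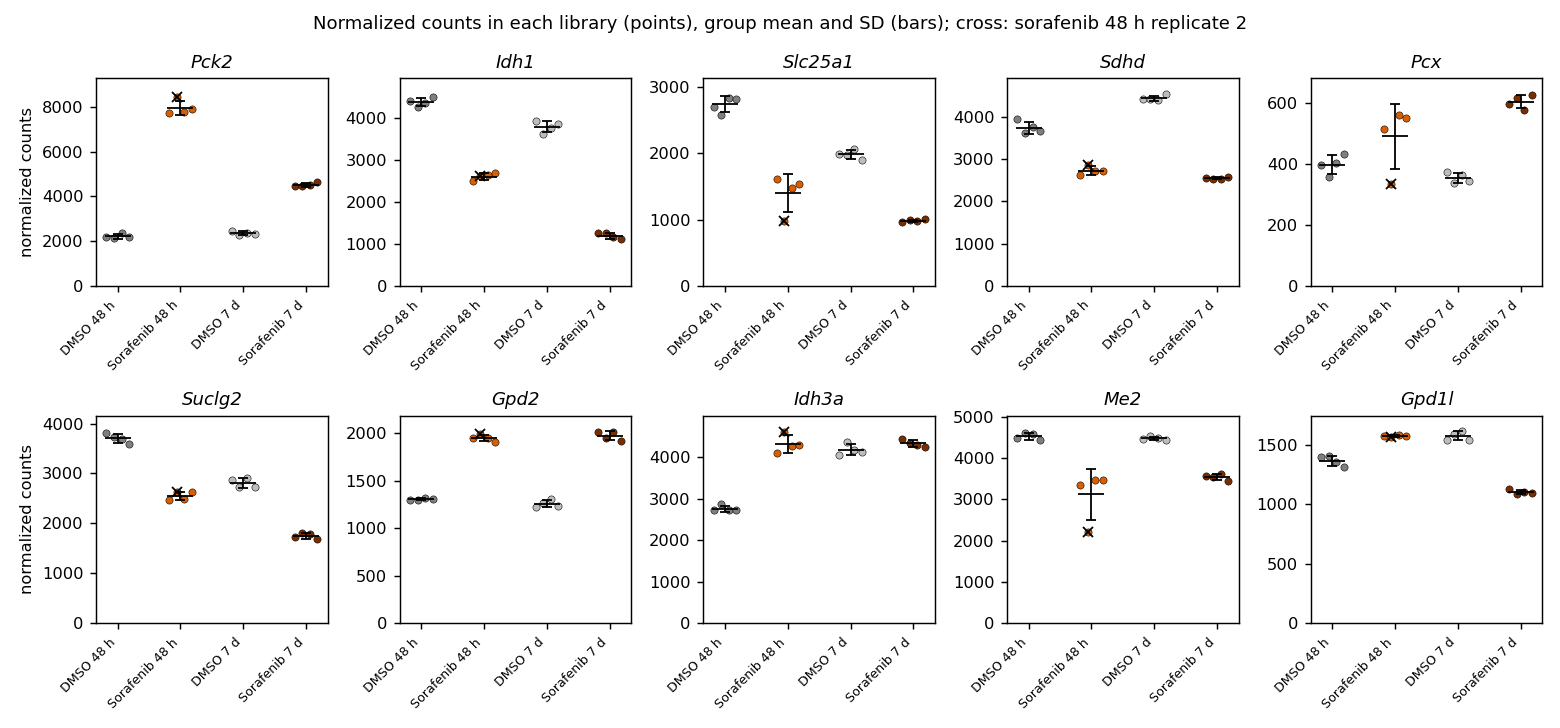
Normalized counts (vertical axes, from 0) of 10 genes in each of the 16 libraries (points), by group, with the group mean and SD as bars, and a cross on sorafenib 48 h replicate 2. Pck2 lies above its DMSO libraries at both times, Idh1, Slc25a1, Sdhd, Suclg2 and Me2 lie below theirs, and the cross stands apart for Slc25a1, Pcx and Me2.

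Among the 7 genes from citrate synthesis to 2-oxoglutarate, Idh1 fell most, Cs and Idh3a rose at 48 h, and Idh2 and Idh3g moved little. Idh1 encodes the cytosolic isocitrate dehydrogenase, a source of NADPH. At 48 h it held 4399, 4267, 4373 and 4499.5 normalized counts with DMSO and 2492, 2622, 2636 and 2680.3 with sorafenib. Its 7 day values were 3931, 3628, 3770.5 and 3861 with DMSO and 1251, 1252, 1154 and 1112 with sorafenib. The groups were far apart at both times, and the sorafenib libraries at 7 days were the lowest of all. Idh1 was 1.68-fold lower at 48 h (-0.75 ± 0.040, FDR = 2.31e-12) and 3.19-fold lower at 7 days (-1.67 ± 0.042, FDR = 1.20e-17), and the 7 day response was the more negative (-0.92 ± 0.057, FDR = 1.09e-10). Idh2, the mitochondrial NADP-dependent enzyme, was only slightly lower with sorafenib (-0.11 and -0.16), but it was lower at 7 days than at 48 h in DMSO (-0.51) and in sorafenib (-0.56). Aco1, a cytosolic aconitase that also acts as the iron regulatory protein IRP1, held 2704 ± 56.2 and 2786 ± 160.1 normalized counts at 48 h and 3033 ± 33.6 and 2984 ± 146 at 7 days, with DMSO and sorafenib respectively, and was not called at either time.

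Cs, citrate synthase, which starts the cycle, changed direction between the times. It rose from 8573 ± 136 with DMSO to 11675 ± 451 normalized counts with sorafenib at 48 h (0.45 ± 0.029, FDR = 4.09e-11), and at 7 days it was at 12778 ± 227 with DMSO and 10488 ± 64.6 with sorafenib (-0.28 ± 0.028, FDR = 3.41e-08). The groups did not overlap at either time, and the difference between the responses was -0.73 ± 0.040, FDR = 1.90e-11. Idh3a encodes the catalytic subunit of the NAD-dependent isocitrate dehydrogenase of the cycle. It held 2725, 2865, 2725 and 2721 normalized counts with DMSO and 4097, 4618, 4267 and 4304 with sorafenib at 48 h. Values at 7 days were 4054, 4364, 4175 and 4134 with DMSO and 4434, 4347, 4302 and 4251 with sorafenib. The DMSO libraries at 48 h were the low group, and the other 3 groups overlapped one another. The change was 0.65 ± 0.037, FDR = 5.99e-12 at 48 h and 0.05 ± 0.036, FDR = 0.242 at 7 days, while Idh3a rose by 0.60 from 48 h to 7 days in DMSO and stayed uncalled in sorafenib (0.00).

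The regulatory subunits of the same enzyme did not follow Idh3a. Idh3b held 3643 ± 76.4 with DMSO and 3620.2 ± 203 normalized counts with sorafenib at 48 h, which was not called, and was lower at 7 days (-0.13 ± 0.038, FDR = 0.00748). Idh3g was lower at 48 h (-0.26 ± 0.10, FDR = 0.0321) and was not called at 7 days (-0.17 ± 0.10, FDR = 0.161). It lies on the X chromosome, beyond the step in sorafenib 48 h replicate 2, and without that library it was lower at 48 h (-0.12, FDR = 0.00140) and at 7 days (-0.17, FDR = 2.55e-06). Without DMSO 48 h replicate 2 its 48 h call was lost (-0.25, FDR = 0.0676). Per kilobase of canonical transcript, the ratio of Idh3a to Idh3b within a library was 0.474 ± 0.0182 with DMSO and 0.746 ± 0.0146 with sorafenib at 48 h, and 0.699 ± 0.0150 and 0.792 ± 0.0179 at 7 days. The libraries of the 4 groups did not overlap in this ratio, and the DMSO libraries at 48 h were the lowest.

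From 2-oxoglutarate to succinate, 5 of 6 genes rose at 48 h and 4 of 6 fell at 7 days. Of all genes tested, 26.9% were higher at 48 h and 27.9% lower at 7 days. All 6 had a lower response at 7 days than at 48 h. Of these, the call for Suclg2 was lost with total counts alone (-0.05, FDR = 0.555) and without any 1 of several libraries, as given below. Over all genes tested, 36.8% were called for that difference, 15.5% higher and 21.3% lower. Ogdh, Dlst and Dld encode the 3 components of the 2-oxoglutarate dehydrogenase complex. Ogdh, the decarboxylase, held 4205 ± 103 with DMSO and 4827 ± 168 normalized counts with sorafenib at 48 h (0.20 ± 0.032, FDR = 2.40e-05), then 5561 ± 158 and 4159 ± 66.8 at 7 days (-0.42 ± 0.032, FDR = 6.08e-10). Dlst, the succinyltransferase core, went the same way (0.24 ± 0.031, FDR = 1.21e-06, then -0.12 ± 0.031, FDR = 0.00285). Dld, the dihydrolipoyl dehydrogenase that the pyruvate and branched-chain complexes also use, was higher at both times (0.48 ± 0.035, FDR = 2.29e-10, then 0.14 ± 0.034, FDR = 0.00125). The groups were apart for all 3 genes at both times.

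Succinyl-CoA ligase makes succinate and a nucleoside triphosphate, with Suclg1 as the shared subunit, Sucla2 as the ADP-specific and Suclg2 as the GDP-specific partner. Suclg2 held 3814, 3735, 3688 and 3596 normalized counts with DMSO and 2471, 2619, 2489.8 and 2625 with sorafenib at 48 h. By 7 days it held 2873, 2724, 2912 and 2733 with DMSO and 1718, 1808, 1782 and 1689 with sorafenib. The sorafenib libraries were lower without overlap at both times, and each treatment was lower at 7 days than at 48 h. Suclg2 fell at 48 h (-0.54 ± 0.036, FDR = 6.83e-11) and 7 days (-0.68 ± 0.036, FDR = 1.79e-12). Sucla2 was higher at 48 h (0.21 ± 0.037, FDR = 6.17e-05) and not called at 7 days (-0.04 ± 0.036, FDR = 0.423). The ratio of Suclg2 to Sucla2 per kilobase within a library was 1.95 ± 0.0324 with DMSO and 1.16 ± 0.0346 with sorafenib at 48 h, and 1.20 ± 0.0681 and 0.768 ± 0.0359 at 7 days, so the GDP form fell below the ADP form on this scale only in the 7 day sorafenib libraries. Suclg1 was slightly higher at 48 h (0.11 ± 0.035, FDR = 0.0119), with overlapping groups, and lower at 7 days (-0.25 ± 0.034, FDR = 2.41e-06). Its 48 h call was lost without DMSO 48 h replicate 3 or 4 (0.07 and 0.07) or sorafenib 48 h replicate 1 or 3 (0.08 and 0.08), and on total counts alone (0.04, FDR = 0.472). The difference between the times was small for Suclg2 (-0.14 ± 0.051, FDR = 0.0316) and was lost without replicate 1, 3 or 4 of DMSO 48 h, replicate 1, 3 or 4 of sorafenib 48 h, replicate 1 or 3 of DMSO 7 days or replicate 1 or 4 of sorafenib 7 days, with values from -0.10 to -0.14.

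**Figure D3:**
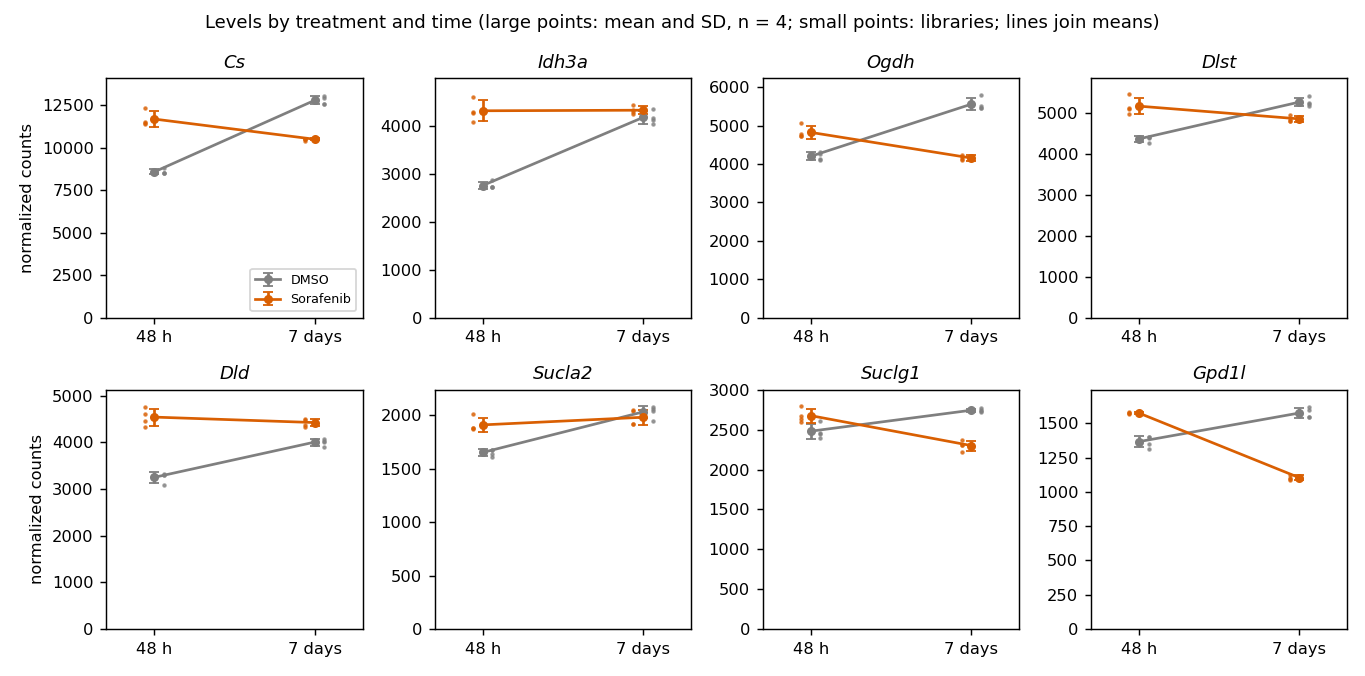
Normalized counts (vertical axes, from 0) of 8 genes at 48 h and 7 days in DMSO (grey) and sorafenib (orange), with large points for means with SD (n = 4), small points for libraries and lines joining the means. The DMSO line rises in all 8 panels, and the sorafenib line ends below it at 7 days for Cs, Ogdh, Dlst, Suclg1, Gpd1l and, with overlapping libraries, Sucla2. The panels were picked by hand. Of all 32 genes, 13 rose, 9 fell (Suclg2, not drawn, by -0.40) and 10 were not called over time in DMSO.

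Succinate dehydrogenase is both an enzyme of the cycle and complex II of the respiratory chain, and its 4 subunits did not move together. Sdhb, the iron-sulfur subunit, was higher with sorafenib, and Sdha, the flavoprotein, and the membrane anchors Sdhc and Sdhd were lower, at both times. Sdhb held 2533 ± 126 with DMSO and 3575 ± 150.3 normalized counts with sorafenib at 48 h (0.50 ± 0.039, FDR = 8.47e-10), then 3012 ± 71.4 and 3446 ± 66.6 at 7 days (0.19 ± 0.038, FDR = 2.00e-04). Sdhd held 3939, 3624, 3757 and 3656 with DMSO and 2632, 2861, 2714 and 2709.8 with sorafenib at 48 h, and 4414, 4429.6, 4395 and 4532 and 2542, 2520.1, 2537 and 2585 at 7 days. All sorafenib libraries were below all DMSO libraries, with the wider gap at 7 days. Sdhd fell at 48 h (-0.46 ± 0.033, FDR = 3.15e-10) and further at 7 days (-0.80 ± 0.033, FDR = 3.49e-14), with a difference between the times of -0.35 ± 0.047, FDR = 6.03e-06. Sdhc fell at 48 h (-0.46 ± 0.030, FDR = 6.27e-11) and 7 days (-0.35 ± 0.030, FDR = 3.53e-09), and Sdha by less (-0.18 ± 0.027, FDR = 1.21e-05, then -0.26 ± 0.027, FDR = 6.80e-08). Within a library, the ratio of Sdhb to Sdhd per kilobase was 0.211 ± 0.00445 with DMSO and 0.409 ± 0.0150 with sorafenib at 48 h, and 0.212 ± 0.00771 and 0.423 ± 0.00803 at 7 days. The DMSO ratios of the 2 times overlapped, the sorafenib ratios overlapped as well, and no library of one treatment reached the range of the other. The ratio of Sdhb to Sdhc moved from 0.499 ± 0.0196 to 0.965 ± 0.0272 at 48 h and from 0.730 ± 0.0153 to 1.06 ± 0.0274 at 7 days. Timm8b and Ccdc127 overlap Sdhd and Sdha on the opposite strand.

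The genes that carry fumarate to oxaloacetate fell slightly, with Mdh2 as the exception at 48 h. Fh1, fumarate hydratase, was lower at 48 h (-0.17 ± 0.033, FDR = 1.72e-04) and 7 days (-0.26 ± 0.033, FDR = 1.21e-06). Mdh1, the cytosolic malate dehydrogenase of the malate-aspartate shuttle, was lower by nearly the same amount at 48 h (-0.31 ± 0.036, FDR = 2.55e-07) and 7 days (-0.32 ± 0.036, FDR = 1.61e-07). Mdh2, its mitochondrial counterpart, held 9497 ± 362 with DMSO and 10715 ± 414 normalized counts with sorafenib at 48 h (0.17 ± 0.034, FDR = 1.80e-04), then 11208 ± 145 and 9884 ± 293 at 7 days (-0.18 ± 0.034, FDR = 1.09e-04). The groups did not overlap for any of the 3 genes at either time.

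Of the 5 mitochondrial carriers, Slc25a1 changed most. It encodes the citrate carrier, which exports citrate for fatty acid and sterol synthesis. At 48 h it held 2703, 2584, 2842 and 2824 normalized counts with DMSO and 1605, 983, 1480.0 and 1533 with sorafenib. In the 7 day libraries there were 1993, 1979.6, 2067 and 1894 with DMSO and 958, 988, 974 and 1002 with sorafenib. Every sorafenib library was below every DMSO library, and at 48 h replicate 2 was the lowest. Slc25a1 was 1.95-fold lower at 48 h (-0.96 ± 0.092, FDR = 1.74e-08) and 2.02-fold lower at 7 days (-1.02 ± 0.093, FDR = 9.36e-09). Without that library the 48 h value was -0.83, the 7 day value -1.02, and the difference between them, which was not called with all libraries (-0.05 ± 0.13, FDR = 0.797), was -0.18 (FDR = 0.00302). An E-box, CACGTG, matched 77 to 72 bases before its start (GRCm39, chr16:17746290-17746349, - strand), and no match was found to TCACNCCAC, a sterol regulatory element, which 1.11% of all promoters held.
Slc25a1: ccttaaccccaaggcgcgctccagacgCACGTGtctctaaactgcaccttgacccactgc

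The other carriers changed by less than 0.5 on the log2 scale. Slc25a10, the dicarboxylate carrier, held 1196 ± 61.1 with DMSO and 1039 ± 36.4 normalized counts with sorafenib at 48 h (-0.20 ± 0.042, FDR = 3.31e-04), and was lower at 7 days as well (-0.45 ± 0.041, FDR = 1.02e-08). Slc25a12, the calcium-regulated aspartate-glutamate carrier also called aralar, was higher at 48 h (0.24 ± 0.038, FDR = 2.14e-05) and 7 days (0.25 ± 0.038, FDR = 8.52e-06). Slc25a13, its liver paralog citrin, held 796 ± 68.4 with DMSO and 925 ± 51.4 with sorafenib at 48 h (0.21 ± 0.055, FDR = 0.00282), with overlapping groups, and was not called at 7 days (-0.04 ± 0.055, FDR = 0.517). Slc25a11, the 2-oxoglutarate carrier, was higher at 48 h (0.15 ± 0.042, FDR = 0.00504) and not called at 7 days (0.04 ± 0.042, FDR = 0.388). The 48 h calls of Slc25a11 (0.08, FDR = 0.186) and Slc25a13 (0.14, FDR = 0.0547) were lost when libraries were scaled by total counts alone. The difference between the times for Slc25a13 was lost without DMSO 48 h replicate 1 (-0.21) or 3 (-0.19) or sorafenib 48 h replicate 1 (-0.21).

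The glycerol-3-phosphate dehydrogenases, which the study examined as a shuttle, moved in different directions. Gpd2, the mitochondrial flavoprotein, held 1297, 1299.6, 1321 and 1308 normalized counts with DMSO and 1957, 1993, 1952 and 1915 with sorafenib at 48 h. The later libraries held 1223, 1272, 1306 and 1235 with DMSO and 2019, 1951, 2012 and 1926 with sorafenib. The sorafenib libraries were higher than DMSO without overlap, and their ranges at 48 h and 7 days overlapped. Gpd2 rose 1.50-fold at 48 h (0.58 ± 0.033, FDR = 5.77e-12) and 1.57-fold at 7 days (0.65 ± 0.033, FDR = 7.78e-13), and the difference between the responses was not called (0.07 ± 0.046, FDR = 0.267).

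Gpd1l, a cytosolic NAD-dependent form, rose at 48 h and fell at 7 days. It held 1398, 1404, 1352 and 1313 normalized counts with DMSO and 1573, 1567, 1579.9 and 1579 with sorafenib at 48 h. At the later time it held 1545, 1594, 1619 and 1543 with DMSO and 1126, 1087, 1102 and 1097 with sorafenib. The groups were apart at both times, with the order of the treatments turned around. The change was 0.20 ± 0.033, FDR = 2.62e-05 at 48 h and -0.52 ± 0.033, FDR = 4.66e-11 at 7 days, and the difference between them was -0.72 ± 0.047, FDR = 2.60e-10. Gpd1, the other cytosolic form, was near the detection limit, with 4 to 34 raw counts per library. It held 19.5, 18.2, 21.4 and 25.1 normalized counts with DMSO and 11.2, 16.6, 8.57 and 4.54 with sorafenib at 48 h. After 7 days it held 29.2, 29.1, 23.3 and 29.7 with DMSO and 16.9, 27.6, 17.5 and 16.7 with sorafenib. Gpd1 was lower at 48 h without overlap (-1.10 ± 0.29, FDR = 0.00328; -1.39 without replicate 2), and at 7 days replicate 2 of sorafenib reached the DMSO range (-0.47 ± 0.23, FDR = 0.0866; without it -0.70, FDR = 0.0201). Per kilobase, the ratio of Gpd1l to Gpd2 within a library was 1.36 ± 0.0499 with DMSO and 1.04 ± 0.0206 with sorafenib at 48 h, and 1.62 ± 0.0126 and 0.723 ± 0.0116 at 7 days. With the union of annotated exons as the length these means were 1.68, 1.30, 2.01 and 0.897, so on either length Gpd1l lay above Gpd2 in every group but sorafenib 7 days. The Gpd1l promoter held an E-box 115 to 110 bases before its start (GRCm39, chr9:114763150-114763209, - strand), the last of the 3 E-box matches among the 32 genes.
Gpd1l: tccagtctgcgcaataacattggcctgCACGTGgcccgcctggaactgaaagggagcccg

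**Figure D4:**
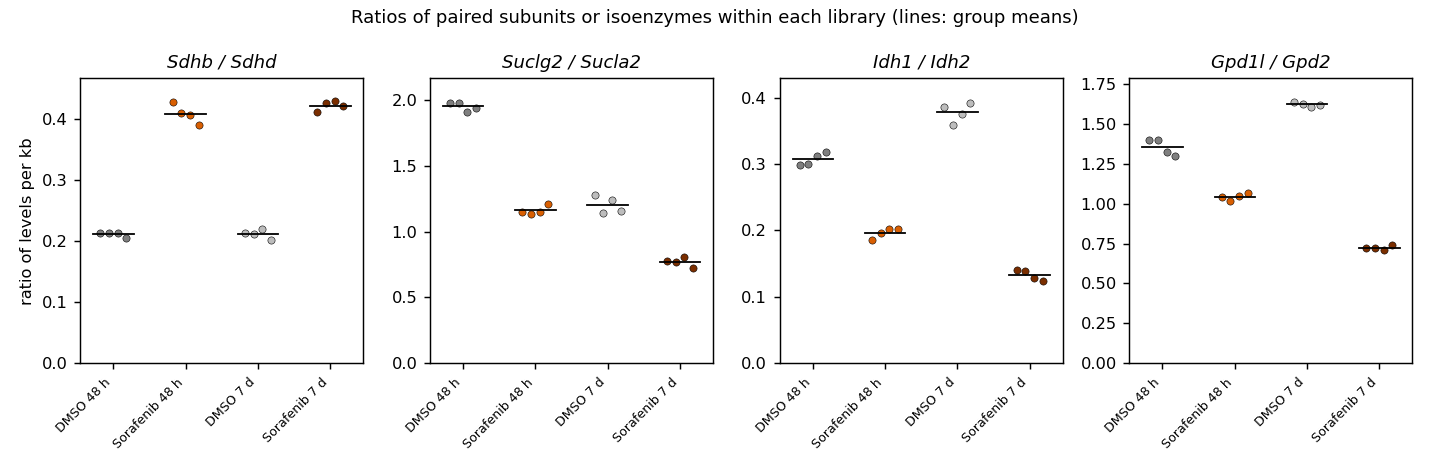
Ratios of levels per kilobase of canonical transcript (vertical axes, from 0) within each library (points) for 4 pairs of subunits or isoenzymes, with lines for the group means. Sdhb/Sdhd goes from 0.211 and 0.212 in the DMSO groups to 0.409 and 0.423 in the sorafenib groups, and Gpd1l/Gpd2 is lowest, at 0.723, in sorafenib 7 days.

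Response and time were then set side by side, since the contrasts share groups and are not independent of one another. By direction, 7 genes were higher at both times (Sdhb, Dld, Pcx, Pck2, Me3, Slc25a12 and Gpd2), against 18.5% of all genes tested, and 11 were lower at both (Idh1, Idh2, Suclg2, Sdha, Sdhc, Sdhd, Fh1, Mdh1, Me2, Slc25a1 and Slc25a10), against 18%. A further 6 were higher at 48 h and lower at 7 days (Cs, Ogdh, Dlst, Suclg1, Mdh2 and Gpd1l), against 3.09%, and none went from lower to higher, against 1.7%. The members were not tested against these shares. The response at 7 days minus that at 48 h was called lower for 16 genes and higher for 1, Pcx, against 36.8% called of all genes (15.5% higher and 21.3% lower). With libraries scaled by total counts alone it was lower for 12 and higher for 3. In DMSO from 48 h to 7 days, 13 genes rose and 9 fell, against 49.4% called of all genes (23.9% higher and 25.5% lower). The risers included Cs (0.58), Idh3a (0.60), Ogdh (0.40), Dld (0.30) and Sucla2 (0.30), and 5 of the 6 genes from 2-oxoglutarate to succinate were among them. In sorafenib over the same time, 2 genes rose (Pcx and Gpd1) and 19 fell, against 39.7% called of all genes (17.5% higher and 22.3% lower). With total counts alone 4 rose and 14 fell. The largest falls were in Idh1 (-1.13), Pck2 (-0.82), Idh2 (-0.56), Suclg2 (-0.54) and Slc25a1 (-0.52). Without sorafenib 48 h replicate 2, Slc25a1 (-0.65) stood before Idh2 (-0.56) and Suclg2 (-0.53). Of the other genes beyond the step, over time in sorafenib without that library Pcx (0.15, with it 0.29) and Gpd1 (1.32, with it 1.03) still rose, Idh3g was called lower (-0.17, with it -0.02) and Me2 was not called (0.05, with it 0.18). Over time in DMSO, leaving it out added calls of lower for Pcx (-0.16) and Idh3g (-0.12). Without sorafenib 7 days replicate 2 or 4 only 1 gene rose, and 3 rose without replicate 1, 3 or 4 of DMSO 48 h or any replicate of sorafenib 48 h. For Sdhc the difference between the times was not called (0.11 ± 0.042, FDR = 0.0582), but it was called higher without replicate 1, 3 or 4 of DMSO 48 h or any replicate of sorafenib 48 h, at values from 0.12 to 0.14.

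Levels between genes were compared per kilobase of canonical transcript. In DMSO at 48 h, Mdh2 was the most abundant of the 32 genes at 6323 ± 241 normalized counts per kilobase, followed by Idh2 at 4329 ± 90.1, Sdhd at 2976 ± 113 and Cs at 2904 ± 46.2. Sdhd and Cs overlapped in their libraries, as did 10 of the 31 pairs of neighbours in this order. This order depends on the length used. Per kilobase of the union of annotated exons Mdh2 stayed first, at 1765, followed by Sdhd at 1466 and Cs at 1350.3, and Idh2 was at position 8, at 893. On the canonical transcript the lowest were Pcx at 94.1 ± 7.40, Gpd1 at 7.36 ± 1.04 and Me3 at 1.31 ± 0.254. With sorafenib Pck2 moved from 479 ± 22.9 to 1721 ± 71.4 at 48 h, and Idh1 moved from 1152 ± 39.8 to 362 ± 21.4 at 7 days. The ratio of Idh1 to Idh2 within a library was 0.307 ± 0.00948 with DMSO and 0.197 ± 0.00751 with sorafenib at 48 h, and 0.378 ± 0.0142 and 0.133 ± 0.00791 at 7 days. The ratio of Mdh1 to Mdh2 was 0.299 ± 0.00998 and 0.213 ± 0.0107 at 48 h, then 0.229 ± 0.00521 and 0.208 ± 0.00606 at 7 days.

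**Figure D5:**
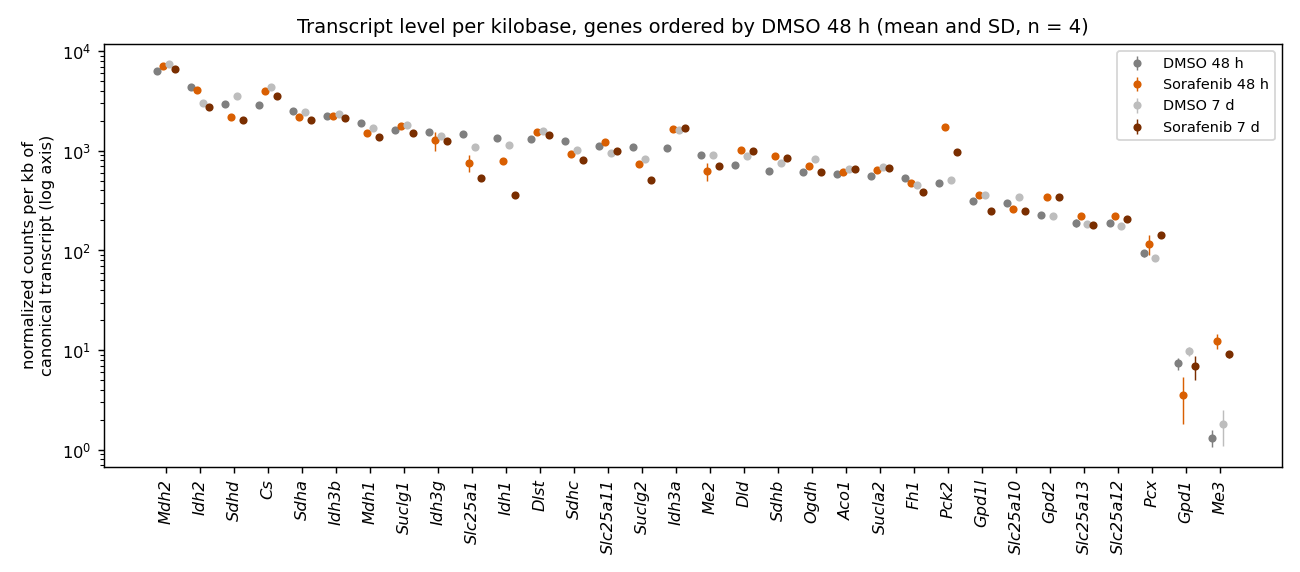
Normalized counts per kilobase of canonical transcript (vertical log axis) of the 32 genes (horizontal axis, ordered by DMSO 48 h) in the 4 groups, as means with SD (n = 4). Gpd1 and Me3 lie below all other genes, and the sorafenib points stand clear of the DMSO points for Pck2 and Me3 (higher) and Idh1 and Slc25a1 (lower).

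Genes at the entry of the cycle and on routes beside it were counted from lists written by hand. Of all genes tested with all 16 libraries, 54.6% were called at 48 h (26.9% higher and 27.7% lower). At 7 days 56.8% were called (28.9% higher and 27.9% lower). The lists were not tested against these shares. Of 13 genes of pyruvate entry, 6 were higher and 5 lower at 48 h, and 4 were higher and 5 lower at 7 days. The pyruvate dehydrogenase kinases, which switch that complex off, fell most at 48 h, and at 7 days they parted. Pdk2 went from 808 ± 37.8 to 207 ± 21.7 (-1.98 ± 0.086, FDR = 8.66e-14), Pdk1 from 6111 ± 243 to 1712 ± 59.7 (-1.84 ± 0.072, FDR = 1.64e-14) and Pdk3 from 3602 ± 87.1 to 1434 ± 292 (-1.32 ± 0.091, FDR = 1.23e-10). At 7 days Pdk1 was higher with sorafenib, from 690.3 ± 124 to 1245 ± 21.5 (0.86 ± 0.077, FDR = 6.71e-09), while Pdk2 (-1.06 ± 0.098, FDR = 1.08e-08) and Pdk3 (-1.33 ± 0.091, FDR = 1.15e-10) were lower again. Pdp2, a phosphatase that switches the complex on, fell at 48 h (-1.09 ± 0.065, FDR = 1.20e-11) and 7 days, where it went from 971 ± 65.9 to 267 ± 21.4 (-1.86 ± 0.067, FDR = 4.12e-15). Of 9 genes of glutamate and transaminase routes, 5 were higher and 1 lower at 48 h, and 3 were higher and 2 lower at 7 days. Gpt2, the mitochondrial alanine transaminase, rose from 2733 ± 55.0 to 6365 ± 200.5 at 48 h (1.22 ± 0.031, FDR = 1.62e-17) and from 2211 ± 54.4 to 4744 ± 28.0 at 7 days (1.10 ± 0.031, FDR = 7.38e-17). Glud1, glutamate dehydrogenase, which makes 2-oxoglutarate, rose by a like amount at both times (0.81 ± 0.033, FDR = 3.20e-14, then 0.81 ± 0.033, FDR = 2.85e-14), while Gpt, the cytosolic alanine transaminase, fell (-1.07 ± 0.13, FDR = 7.52e-07, then -0.56 ± 0.14, FDR = 0.00177). Gpt on chromosome 15 and Pdk3 on the X chromosome lie beyond the step in sorafenib 48 h replicate 2, and without that library their 48 h values were -0.91 and -1.19. Without it, 6 genes of the glutamate list were higher and 2 lower at 7 days.

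Of 8 isoenzymes and genes that use citrate or malate outside the 32, Pck1 and Slc25a21 (no counts) were not tested. Of the other 6, 2 were higher and 2 lower at 48 h, and 3 were higher and 1 lower at 7 days (3 and 2 without sorafenib 48 h replicate 2). With all 16 libraries, 26.9% of all genes tested were higher and 27.7% lower at 48 h, and 28.9% and 27.9% at 7 days. Me1, the cytosolic malic enzyme, rose from 787 ± 19.0 to 1941 ± 92.2 at 48 h (1.30 ± 0.045, FDR = 2.36e-15) and less at 7 days (0.52 ± 0.043, FDR = 1.77e-09). Acly, which splits exported citrate into acetyl-CoA and oxaloacetate, fell from 20038 ± 336 to 13269 ± 304 at 48 h (-0.59 ± 0.028, FDR = 2.46e-13) and from 17618 ± 381 to 9789 ± 237 at 7 days (-0.85 ± 0.028, FDR = 8.59e-16), as Slc25a1 did. Ogdhl, a 2-oxoglutarate dehydrogenase isoenzyme, was lower at 48 h (-0.36 ± 0.048, FDR = 2.53e-06) and higher at 7 days (0.54 ± 0.054, FDR = 3.93e-08).

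Promoters of the 32 genes were searched on both strands over the 250 bases before the start, with matches allowed to overlap. CACGTG was present in 3 of 32 (9.38%) and in 6.27% of 21722 protein-coding genes. The CCAAT box was present in 17 of 32 (53.1%, beside 36.5%), and the GC box GGGCGG in 13 of 32 (40.6%, beside 36.3%). The palindromic NRF1 motif was present in Sdha and Sdhd (6.25%, beside 3.7%), and AAGGTCA, a site of estrogen-related receptors, in none of the 32, while 3.93% of all promoters held it. The 17 genes with a CCAAT box included genes that rose (Pck2 and Pcx), fell (Suclg2 and Me2) and changed direction (Cs, Ogdh and Gpd1l). These matches describe letters in a window, not bound sites.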

How the data were processed

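The 16 libraries were sequenced from total RNA of cultured cells, prepared per the labels with an Illumina stranded mRNA kit. According to the methods and the submitters' processing notes, reads were aligned to GRCm39 with STAR 2.7.1a, and featureCounts 2.0.6 is named there. The values deposited by the authors are raw counts per gene, whole numbers with no normalization or pooling. The gene annotation and the strand setting of the counting are not given in the sources used here, so counts of genes that overlap on opposite strands are uncertain to that extent. Besides Pcx, Sdha and Sdhd, this limit holds for Cs, Idh2, Idh3a, Idh3b, Idh3g, Dlst, Dld, Sucla2, Mdh1, Slc25a11 and Gpd1. Each of them overlaps a counted gene on the opposite strand. Of 40840 genes, 20396 with fewer than 10 counts in total were removed. The quasi-likelihood test of edgeR 4.0.16 in R 4.3.3 was fitted to the other 20444, with TMM normalization, 1 coefficient per group, all 16 libraries and no block. A call is an FDR under 0.05 by the Benjamini-Hochberg method over all genes in the fit. Normalized counts are counts over the TMM-scaled library size, with these sizes set to a geometric mean of 1, and errors are SD over 4 libraries for levels and SE for log2 fold changes. Interval and floor estimates were not needed, and with totals of 16586254 to 30828427 counting error is small except for Me3 and Gpd1.

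Groups were taken from the treatment labels. Within groups, the chi-square per gene of 2 replicates was 1.58 or higher, so no 2 libraries of a group differed by counting error alone. This cannot tell separate cultures from repeated libraries of 1 culture, and libraries of different groups were not compared in this way. The 32 genes, the related lists, the marker lists and the motifs were chosen with earlier results of these data known. All 32 genes are named. Values in each library are given for the 10 genes with the largest called fold change and a mean of at least 100 normalized counts, and for Pck2, Gpd1, Gpd1l and Gpd2. In each related list at most 3 genes per time are named. Coordinates, exon lengths and promoters come from GENCODE and the GRCm39 genome. To locate the step in 1 library, the 10383 genes averaging 100 or more counts were put in genome order and divided where the sum of squares between both parts was largest. The fit was tested on simulated data of 15373 genes, with 200 genes of at least 100 normalized counts changed at 48 h and no step in any library. It recovered 94 of 100 changes of 0.5 and 100 of 100 changes of 1 on the log2 scale, with 11 false calls. In the data themselves 54.6% of genes were called at 48 h and 1 library had a step, so these rates may not carry over. Alternatives were DESeq2 1.42.0, limma 3.58.1 with voom and quality weights, other scalings and filters, a fold threshold, only the 2 groups compared, a replicate block and each library left out in turn.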

Additional observations from a re-analysis of the deposited data

Results flagged for a closer look

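In 14 of 128 gene and group combinations, 1 of the 4 libraries lay farther from the rest than Dixon's 95% limit for 4 samples, a distance that chance gives in about 1 in 20 groups. Of these, 5 were sorafenib 48 h replicate 2, the library with the step on chromosome 14. Idh3g held 1343 normalized counts there (others 2169 to 2318) and Me2 2202 (others 3341 to 3475), and both lie beyond the step. Cs held 12347 in that library (others 11384 to 11507), Aco1 3026 (others 2696 to 2716) and Sucla2 2009.6 (others 1872 to 1884). These lie before the step, where the 27 genes had a median of 1.07 times the mean of the other 3 replicates. Without that library their 48 h log2 fold changes were 0.42, 0.00 and 0.19, beside 0.45, 0.04 and 0.21 with it. In DMSO 48 h, replicate 2 was high for Cs at 8777 (others 8491 to 8514) and Idh3a at 2865 (others 2721 to 2725) and low for Dlst at 4267 (others 4398 to 4419.6), and replicate 4 was low for Dld at 3082 (others 3301 to 3321). In DMSO 7 days, replicate 2 was high for Ogdh at 5796 (others 5468 to 5511) and Mdh2 at 11424 (others 11124 to 11159.5), and replicate 3 was low for Gpd1 at 23.3 (others 29.1 to 29.7). In sorafenib 7 days, replicate 1 was low for Mdh2 at 9445 (others 10013 to 10052), and replicate 2 was high for Gpd1 at 27.6 (others 16.7 to 17.5).

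The response to sorafenib differed between 7 days and 48 h for 17 of the 32 genes by edgeR's interaction test, against 36.8% of all genes tested (15.5% higher and 21.3% lower). Of the differences (7 days minus 48 h, log2 scale), 16 were below 0. They were widest for Idh1 (-0.92), Pck2 (-0.90), Cs (-0.73), Gpd1l (-0.72), Ogdh (-0.62) and Idh3a (-0.60). They were smaller for Suclg1 (-0.36), Dlst (-0.36), Mdh2 (-0.36), Sdhd (-0.35), Dld (-0.34), Sdhb (-0.30), Slc25a13 (-0.25), Sucla2 (-0.24), Slc25a10 (-0.24) and Suclg2 (-0.14). Pcx alone was above 0 (0.45). These differences take in the change of the DMSO libraries between the times as well as that of the sorafenib libraries.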

How the results depend on the processing

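At 48 h, at 7 days and for the difference between the times, no call of a single gene reversed under any alternative run. Calls over time in DMSO or sorafenib were not checked for this gene by gene. With a log2 fold change of 0.5 or more in either direction also required, 4 genes were higher and 5 lower at 48 h, 4 and 5 at 7 days, 0 and 6 for the difference between the times (edgeR, where Pcx lay below it at 0.45), 2 and 1 over time in DMSO, and 1 and 6 over time in sorafenib. At this threshold 32.2% of all genes tested were called at 48 h and 34% at 7 days. The shares for the other comparisons were not computed, so those counts have no background beside them. The number with a higher response at 7 days, 1 in the text, was 2 with DESeq2, voom and DESeq2's size factors and 3 with total counts alone or at least 10 counts in every library. The number that rose over time in sorafenib, 2 in the text, was 4 with DESeq2, 4 with total counts alone and 5 with at least 10 counts in every library, a filter that removed Gpd1 and Me3. With total counts alone the median log2 fold change over all genes was -0.12 at 48 h, beside -0.05 in the text. At 48 h, Idh2 (-0.07, FDR = 0.0581) and Idh3g were not called with a filter of 1 count in any library, and Idh3g, Suclg1 and Pcx were not called when only the 2 groups compared were fitted. With each library left out in turn, 15 to 17 were higher and 12 to 13 lower at 48 h, and 7 in each fit and 18 to 19 at 7 days. The ranges were 1 to 2 and 14 to 17 for the difference, 13 to 14 and 8 to 11 over time in DMSO, and 1 to 3 and 16 to 19 over time in sorafenib. Same-numbered replicates did not deviate together (correlations over 10660 genes of -0.0486 to 0.0118 at 48 h and -0.00477 to 0.127 at 7 days, with 1 of 4 libraries at either time closest to its own number). With the replicate number as a replicate block, counts were 17 higher and 13 lower at 48 h, 7 and 18 at 7 days, 1 and 15 for the difference, 13 and 9 over time in DMSO and 2 and 18 over time in sorafenib. Of the differences between the times, the block took away the call of Suclg2 (-0.14, FDR = 0.0649). The causes of these changes were not tested. Depth limits Me3 and Gpd1, at 4 to 55 counts per library.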

Other observations

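Genes that feed succinyl-CoA into the cycle from propionyl-CoA moved in both directions. For comparison, 54.6% of all genes tested with all 16 libraries were called at 48 h (26.9% higher and 27.7% lower). At 7 days the share was 56.8% (28.9% higher and 27.9% lower), and the list was not tested against it. Of 6 such genes, 2 were higher and 3 lower at 48 h, and 1 was higher and 4 were lower at 7 days (2 and 4 without sorafenib 48 h replicate 2). Pcca, the biotin-bearing subunit of propionyl-CoA carboxylase, rose from 639 ± 22.4 to 945 ± 159 normalized counts at 48 h (0.57 ± 0.087, FDR = 1.08e-05) and from 565 ± 21.5 to 751 ± 54.9 at 7 days (0.41 ± 0.088, FDR = 4.30e-04). Its partner Pccb fell from 895 ± 39.6 to 665 ± 47.5 at 48 h (-0.42 ± 0.056, FDR = 1.67e-06) and was lower at 7 days as well (-0.72 ± 0.057, FDR = 9.86e-10). Mcee, methylmalonyl-CoA epimerase, fell at 48 h (-0.77 ± 0.069, FDR = 7.25e-09) and 7 days (-0.42 ± 0.073, FDR = 4.60e-05). Pcca lies on chromosome 14 beyond the step in sorafenib 48 h replicate 2, and without that library its 48 h change was 0.68.

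Of 12 genes for lipoylation, iron-sulfur delivery and complex II assembly, 5 were higher and 4 lower at 48 h, and 3 were higher and 4 lower at 7 days. Among all genes tested, 26.9% were higher and 27.7% lower at 48 h, and 28.9% and 27.9% at 7 days. Nfu1, which delivers iron-sulfur clusters to lipoyl synthase and other mitochondrial enzymes, rose from 691 ± 17.0 to 1807 ± 67.2 normalized counts at 48 h (1.39 ± 0.039, FDR = 7.48e-17) and from 696 ± 25.2 to 2102 ± 23.8 at 7 days (1.59 ± 0.038, FDR = 6.33e-18). Bola3, which acts with Nfu1, rose from 424 ± 16.8 to 687 ± 63.8 at 48 h (0.69 ± 0.062, FDR = 7.22e-09) and by less at 7 days (0.21 ± 0.058, FDR = 0.00457). Sdhaf4, an assembly factor of Sdha, fell from 266 ± 22.2 to 179.8 ± 25.2 at 48 h (-0.58 ± 0.10, FDR = 6.51e-05) and from 177 ± 11.1 to 139 ± 19.1 at 7 days (-0.36 ± 0.11, FDR = 0.00744). Sdhaf1, an assembly factor of Sdhb, fell at 48 h (-0.23 ± 0.091, FDR = 0.0407) and 7 days (-0.48 ± 0.089, FDR = 1.01e-04).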
